A study of Mus musculus with 295 samples.

Results

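Of 10445 pairs of genes that stand next to each other in the measured gene order, 34 varied together across the adipose tissue of F2 mice with a Pearson r of 0.906 or more, and 5 of these, each of 2 genes with unrelated names, are described here. They are Mpped1 and Sult4a1, Serhl and Rrp7a, and Josd1 and Gtpbp1 on chromosome 15, Tgm3 and Tmc2 on chromosome 2, and Prr14l and Depdc5 on chromosome 5. The 10 members were picked by name because of that r, so the r of a pair is a description here and carries no test. The 10 genes have 12 probes among the 23387 on the array. Serhl and Depdc5 have 2 probes each, and the more variable probe stands for the gene unless stated. All 12 probes were measured in each of the 295 mice and passed the filter on missing values, as did 22894 probes in all, which stand for 11454 named genes. "Adjacent" means next to each other among genes with a value. The protein-coding gene Efcab6 lies between Mpped1 and Sult4a1, 3 others (AU015228, Tgm6 and Snrpb) lie between Tgm3 and Tmc2, and no annotated protein-coding gene lies between the partners of the other 3 pairs.

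The 295 mice were an F2 intercross of the inbred strains C57BL/6J and C3H/HeJ, both carrying the ApoE null allele, and were given a high-fat Western diet between weeks 8 and 24. All of them share the missing ApoE and the diet, and no mouse on another diet or with ApoE was part of the series, so they form 1 group. Each mouse's adipose RNA, labelled Cy3, was hybridised once against a common pool of all the RNAs, labelled Cy5. The labels give neither the sex nor the genotype of a mouse, and the rule for these pairs splits the mice by Eif2s3y, a gene on the Y chromosome, at a deposited value of -0.6. The split left 153 Eif2s3y-high mice (lowest -0.10, median 1.26, highest 1.77 on the log2 scale) and 142 Eif2s3y-low mice (lowest -6.51, median -5.44, highest -4.16), with no mouse between -4.16 and -0.10. All values below are log2 ratios of a mouse over the pool, so 0 is the level of the pool and a value of 1 is a doubling. They say how a gene differs between mice and not how strongly it is expressed, and for the same reason markers of adipose tissue cannot show from these values that the tissue is what its label says. In whole tissue, a change in the number of cells of a type and a change in RNA per cell cannot be told apart.

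Neighbouring genes can vary together for several reasons known from other work. They may share a promoter region or a stretch of open chromatin, transcription may run from one gene into the next, and in an F2 cross neighbours are inherited as a block and so carry linked alleles. The 10 members have different roles. Mpped1 encodes a metallophosphoesterase known mainly from brain, and Sult4a1 a brain member of the cytosolic sulfotransferases, enzymes that add sulfate to small molecules. Tgm3 is a transglutaminase that cross-links proteins in the outer skin and hair, and Tmc2 is a component of the mechanosensitive channel of inner ear hair cells. Serhl encodes a serine hydrolase-like protein, and Rrp7a a component of the machinery that assembles the small ribosomal subunit. Depdc5 is a subunit of GATOR1, which holds back the growth kinase mTORC1 when amino acids are scarce, and Prr14l is a relative of Prr14, a protein that ties heterochromatin to the nuclear lamina. Josd1 encodes a Josephin-type deubiquitinase, and Gtpbp1 a GTPase related to translation factors.

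Promoter windows from RefSeq (GRCm38.p6), running from 250 bases before to 50 bases after the start of a gene, were available for 8 of the 10 members. The members named with no window are Sult4a1 and Tmc2. Josd1 and Gtpbp1 are read away from each other from starts 3024 bases apart, and so are Prr14l and Depdc5, from starts 9491 bases apart. Serhl and Rrp7a are read towards each other, with 22596 bases between their starts. The windows of the 2 head-to-head pairs are shown to let the partners be set side by side, and that of Tgm3 as the member window with a TATA box. Capitals mark 3 motifs, each searched on both strands. The GC box was searched as GGGCGG. The CCAAT box was searched by its letters, and the TATA box as TATAAA. Longer runs of capitals hold overlapping GC boxes.
Josd1 (chr15:79687823-79688122, minus strand): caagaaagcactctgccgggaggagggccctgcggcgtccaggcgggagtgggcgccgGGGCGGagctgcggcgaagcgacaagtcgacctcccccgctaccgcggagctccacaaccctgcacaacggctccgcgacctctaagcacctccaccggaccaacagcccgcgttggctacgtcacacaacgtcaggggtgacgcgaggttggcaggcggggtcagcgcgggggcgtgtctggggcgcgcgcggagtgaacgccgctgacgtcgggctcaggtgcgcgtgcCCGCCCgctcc
Gtpbp1 (chr15:79690646-79690945, plus strand): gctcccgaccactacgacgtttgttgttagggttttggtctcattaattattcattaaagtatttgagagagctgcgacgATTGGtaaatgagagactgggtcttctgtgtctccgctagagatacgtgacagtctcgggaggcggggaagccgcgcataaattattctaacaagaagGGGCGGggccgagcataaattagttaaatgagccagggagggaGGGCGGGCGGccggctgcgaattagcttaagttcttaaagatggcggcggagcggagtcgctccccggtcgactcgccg
Prr14l (chr5:32854181-32854480, minus strand): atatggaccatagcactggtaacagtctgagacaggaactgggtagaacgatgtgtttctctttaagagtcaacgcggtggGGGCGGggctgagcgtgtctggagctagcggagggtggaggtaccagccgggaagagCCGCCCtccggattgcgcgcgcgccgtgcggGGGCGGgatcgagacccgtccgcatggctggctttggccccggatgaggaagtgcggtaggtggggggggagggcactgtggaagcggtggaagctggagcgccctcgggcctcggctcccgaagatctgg
Depdc5 (chr5:32863471-32863770, plus strand): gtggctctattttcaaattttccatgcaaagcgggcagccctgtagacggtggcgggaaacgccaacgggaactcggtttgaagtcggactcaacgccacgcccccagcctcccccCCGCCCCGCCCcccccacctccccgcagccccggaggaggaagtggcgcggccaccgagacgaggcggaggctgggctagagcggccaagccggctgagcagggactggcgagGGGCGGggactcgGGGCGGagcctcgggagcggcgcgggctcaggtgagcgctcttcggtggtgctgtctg
Tgm3 (chr2:130012090-130012389, plus strand): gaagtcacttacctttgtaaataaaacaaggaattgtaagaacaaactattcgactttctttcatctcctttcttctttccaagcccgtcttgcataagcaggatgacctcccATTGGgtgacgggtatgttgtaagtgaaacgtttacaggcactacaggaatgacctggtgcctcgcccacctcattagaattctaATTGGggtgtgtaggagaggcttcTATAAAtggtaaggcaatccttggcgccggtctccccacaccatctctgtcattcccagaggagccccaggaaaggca
The Josd1 window held 2 GC boxes and the Gtpbp1 window 3, with 1 CCAAT box in Gtpbp1 alone. The Prr14l window held 3 GC boxes and the Depdc5 window 4. The Tgm3 window held 1 TATA box, 2 CCAAT boxes and no GC box. Of 32851 windows of 300 bases in the table, 35.7% held a GC box, 37.4% a CCAAT box and 13.6% a TATA box. The GC box was found in a window of 7 of the 8 members and not in that of Tgm3. GC content was 72.3% in Josd1 against 53.0% in Gtpbp1, 65.3% in Prr14l against 70.3% in Depdc5, 62.3% in Serhl against 57.0% in Rrp7a, and 46.7% in Tgm3. These matches describe letters only.

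The 10 members moved within a narrow range in most mice and lay far above the pool in a few. Mpped1 had its lowest value at -0.90, its median at -0.11 and its highest at 1.97, and Sult4a1 ran from -0.74 through -0.03 to 1.37. Tgm3 ran from -0.58 through -0.06 to 1.60, and Tmc2 from -0.92 through -0.09 to 1.87. Serhl ran from -0.84 through -0.07 to 1.72, and Rrp7a from -0.43 through -0.02 to 1.44. The low end of each gene thus lay less far from the pool than the high end. Prr14l ran from -0.75 through -0.07 to 1.77, Depdc5 from -0.56 through 0.00078 to 1.13, Josd1 from -0.37 through 0.05 to 1.06, and Gtpbp1 from -0.58 through 0.03 to 1.29. The SD over the 295 mice was largest in Mpped1 (0.44 ± 0.02, SE) and Tmc2 (0.42 ± 0.02) and smallest in Josd1 (0.21 ± 0.01) and Depdc5 (0.27 ± 0.01), against a median of 0.29 over all probes, so the members were not unusually variable. Their distributions leaned to the right, with a skewness from 0.88 in Sult4a1 to 1.86 in Tgm3, against a median of 0.25 over all probes. Of all probes, 28.6% were skewed at least as far as Sult4a1.

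The mice at the ends were largely the same for the 10 genes. Mouse 83, an Eif2s3y-low mouse, had the highest value of 8 of the 10 members, among them Mpped1 at 1.97, Tmc2 at 1.87, Prr14l at 1.77 and Josd1 at 1.06. Mouse 262 held the highest Tgm3, at 1.60, and mouse 322 the highest Depdc5, at 1.13, and both were Eif2s3y-low. The 5 mice with the highest mean over the 10 members (83, 262, 322, 165 and 190) were all Eif2s3y-low and had all 10 members above the pool. At the other end, mouse 280 of the Eif2s3y-high set had all 10 members below the pool, from -0.91 in Tmc2 to -0.03 in Josd1, and so did mouse 15 of the Eif2s3y-low set, from -0.92 in Tmc2 to -0.32 in Josd1. When the 30 highest mice were taken for each gene, 45 mice appeared for any gene, 18 of them for all 10 genes. The 30 lowest mice of each gene were less alike, with 80 mice appearing for any gene and 6 for all 10.

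**Figure D1:**
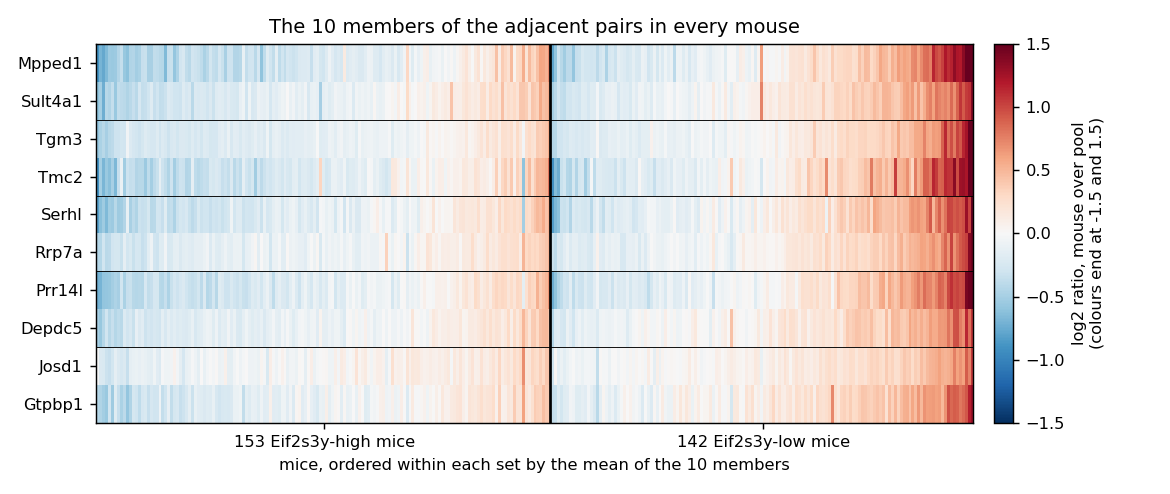
Log2 ratios of the 10 members (rows, partners between the lines) in the 153 Eif2s3y-high mice on the left and the 142 Eif2s3y-low mice on the right, each set ordered by the mean of the 10 standardised members. The 10 rows change colour together along the mice, and the darkest red columns, with values up to 1.97, lie among the Eif2s3y-low mice.

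Partners varied together inside both sets. For Mpped1 and Sult4a1 the r was 0.905 in Eif2s3y-high mice and 0.957 in Eif2s3y-low mice, and 0.947 over all 295. For Tgm3 and Tmc2 it was 0.888 in Eif2s3y-high and 0.946 in Eif2s3y-low mice, and 0.940 over all. For Serhl and Rrp7a it was 0.820 in Eif2s3y-high and 0.946 in Eif2s3y-low mice, and 0.920 over all. The r was lower in the Eif2s3y-high set for all 5 pairs. For Prr14l and Depdc5 it was 0.858 in Eif2s3y-high and 0.933 in Eif2s3y-low mice, and 0.920 over all, and for Josd1 and Gtpbp1 it was 0.850 in Eif2s3y-high and 0.923 in Eif2s3y-low mice, and 0.906 over all. The difference between the sets was not tested, and each member also spread less in the Eif2s3y-high set: the SD of Tgm3 was 0.19 in Eif2s3y-high against 0.38 in Eif2s3y-low mice, and that of Mpped1 was 0.30 in Eif2s3y-high against 0.49 in Eif2s3y-low mice. Spearman's rho over all mice ran from 0.863 in Josd1 and Gtpbp1 to 0.931 in Mpped1 and Sult4a1, and after leaving out the 2 mice most distant from the first-named member's median, r stayed between 0.898 and 0.942. When the mice were split by number into 3 blocks (2 to 117, 118 to 246 and 247 to 399), r within a block ran from 0.879 to 0.952.

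Single mice broke the pattern. In mouse 9, an Eif2s3y-high mouse, Serhl was at -0.51 while Rrp7a was at 0.51, and Prr14l was at -0.14 while Depdc5 was at 0.50. It was the mouse in which the standardised partners lay farthest apart in both of these pairs. The other Serhl probe had its highest value of all mice in mouse 9, at 0.75, so the Serhl probes disagreed there. Members of other pairs also lay apart in this mouse, with Tmc2 at -0.60 and Mpped1 at 0.54. The Tgm3 and Tmc2 pair lay farthest apart in mouse 254, at -0.18 and 0.33, and the Josd1 and Gtpbp1 pair in mouse 244, at 0.22 and 0.72. In the 48 Eif2s3y-high arrays that carry transcripts of the epididymis, a tissue that lies against the fat pad, r ran from 0.751 in Serhl and Rrp7a to 0.952 in Mpped1 and Sult4a1, and in the 247 arrays without them from 0.897 to 0.945. The members' medians in those 48 arrays lay lower, as values with no test: that of Mpped1 was -0.34, against -0.17 in the other Eif2s3y-high mice, and that of Gtpbp1 was -0.22, against -0.02.

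**Figure D2:**
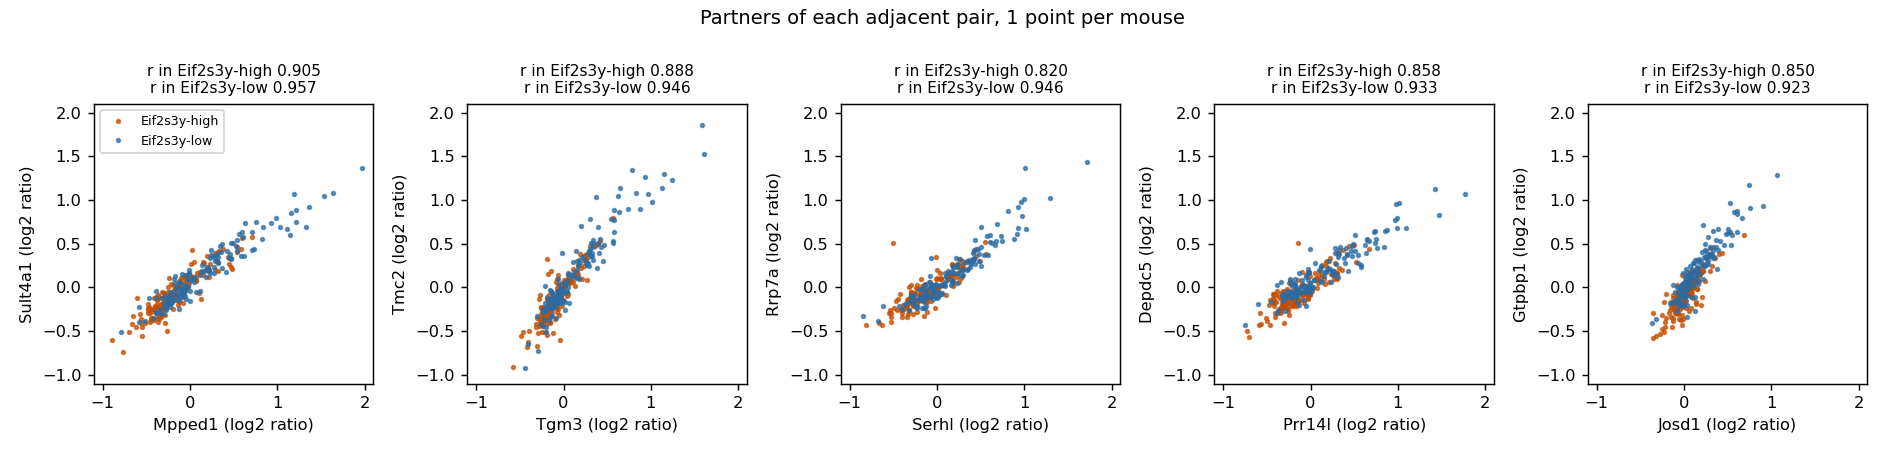
Log2 ratio of one partner against the other for each pair, 1 point per mouse, with Eif2s3y-high mice in orange and Eif2s3y-low mice in blue and the r of each set above each panel. The points of each pair lie along 1 line, with Eif2s3y-low mice alone beyond 1.0 on either axis; mouse 9 is the orange point apart from the line in the Serhl and Rrp7a panel, at -0.51 and 0.51.

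The probe that was measured mattered for the 2 members with a further probe. The other Serhl probe ran from -1.02 through 0.19 to 0.75 and had an r of 0.252 with the first Serhl probe and of 0.351 with Rrp7a, against 0.920 for the probe in the pair. The other Depdc5 probe ran only from -0.25 through 0.07 to 0.71, with an SD of 0.12, and had an r of 0.403 with the first Depdc5 probe and of 0.382 with Prr14l. The close covariation of these 2 pairs was therefore seen with 1 probe of Serhl and 1 probe of Depdc5 and was weaker with the other. Only 0.319% of all probes had a smaller SD than the other Depdc5 probe. Whether the other probes read their transcripts well was not tested. The files give no probe sequence that would show which part of the transcript each probe reads.

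Members of different pairs covaried as closely as partners did. The 5 partner pairs had r from 0.906 to 0.947 with a median of 0.920. The 28 combinations of members on different chromosomes had r from 0.869 to 0.966 with the same median of 0.920, and the 12 combinations of non-partners on chromosome 15 from 0.864 to 0.929 with a median of 0.903. The highest r among the 10 genes joined Tgm3 on chromosome 2 with Prr14l on chromosome 5, at 0.966. The partner was the closest of the other 9 members for Sult4a1 and for Tmc2 alone. Prr14l had 6 members, all on other chromosomes, with a higher r than its neighbour Depdc5, Serhl and Rrp7a had 4 each above their partner, and Josd1 had 1, Depdc5 at 0.919. On chromosome 15, Serhl and Rrp7a lie within 20 places of Mpped1 in the gene order, while Josd1 and Gtpbp1 lie more than 20 places from any of these.

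Among all other probes with a known chromosome, 8 of the 10 members had probes on their own chromosome with a higher r than the partner, and all 10 had such probes elsewhere. For Mpped1 these were 2 of 475 probes on chromosome 15 (0.421%) and 66 of 11901 on other chromosomes (0.555%). For Prr14l they were 8 of 792 on chromosome 5 (1.01%) and 146 of 11583 elsewhere (1.26%). Tgm3 had 8 of 997 on chromosome 2 (0.802%) and 70 of 11379 elsewhere (0.615%). The share of such probes was higher off the chromosome for 8 members and higher on it for Tgm3 and Tmc2. Sult4a1 and Josd1 had no such probe on chromosome 15, and had 3 and 8 of 11901 elsewhere.

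What the members shared could be summarised by 1 component. The first principal component of 10107 probes on chromosomes other than 2, 5 and 15, called the array-wide component here and added after the data had been seen, held 19.2% of the variance of those probes. Although it used no probe on a member's chromosome, its r with the members ran from 0.902 in Josd1 to 0.970 in Mpped1, and was 0.979 with the mean of the 10. Of the 10107 probes, 730 (7.22%) had an r of at least 0.8 with it. With this component held constant, the r between partners was 0.367 for Mpped1 and Sult4a1, 0.419 for Tgm3 and Tmc2, 0.390 for Serhl and Rrp7a, 0.229 for Prr14l and Depdc5 and 0.409 for Josd1 and Gtpbp1. The same step left a median of 0.285 in the combinations of members on different chromosomes (-0.0044 to 0.633) and of 0.211 in the non-partners on chromosome 15 (0.025 to 0.373). Partners thus stood at 0.229 to 0.419, inside the range of members on different chromosomes. Their median of 0.390 was above the medians of the 2 other classes, a difference that was not tested.

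**Figure D3:**
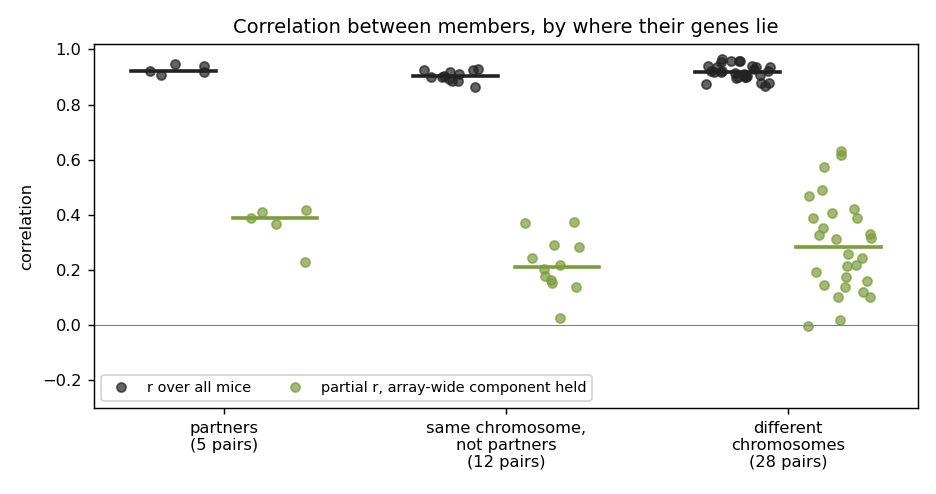
Correlation over 295 mice for the 5 partner pairs, the 12 non-partner combinations on chromosome 15 and the 28 combinations on different chromosomes, with 1 point per combination and a bar at the median; black is r, green the partial r with the array-wide component held constant. The black points lie between 0.864 and 0.966 in all 3 classes, and the green points between -0.0044 and 0.633.

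Among the 10445 adjacent pairs, the 5 pairs ranked 12, 18, 26, 28 and 34 by r, where the median adjacent pair had an r of 0.039. With the component held constant, and by the size of r whatever its sign, they ranked 1500 (Mpped1 and Sult4a1), 1095 (Tgm3 and Tmc2), 1302 (Serhl and Rrp7a), 3380 (Prr14l and Depdc5) and 1161 (Josd1 and Gtpbp1). Negative pairs of larger size thus count above them in this ranking. Just below the lowest of them lay, among pairs without a shared name, Ido1 and Adam18 on chromosome 8, at 0.901, and Card14 and Sgsh on chromosome 11, at 0.893. The first of these kept an r of 0.890 with the component held constant, while the other had 0.357. In all, 105 adjacent pairs had an r of at least 0.8, of which 29 were under 0.4 with the component held constant, and 77 adjacent pairs were at or above 0.8 after that step.

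Most of the array moved with each pair. A pair score was formed for each pair as the mean of its 2 standardised members, and each other probe was fitted on it with limma, with the Eif2s3y set as a covariate and Benjamini-Hochberg adjustment over all 22892 probes. An adjusted p under 0.05 was reached by 78.6% of the probes for Mpped1 and Sult4a1, 78.6% for Tgm3 and Tmc2, 79.0% for Serhl and Rrp7a, 78.6% for Prr14l and Depdc5 and 78.3% for Josd1 and Gtpbp1, so passing the test is close to the rule for any gene. Size tells more. The correlation within sets, after removing the set means, was at least 0.8 for 5.47% of probes on chromosome 15 and 6.37% of those on other chromosomes with Mpped1 and Sult4a1, and for 8.22% on chromosome 2 against 6.04% elsewhere with Tgm3 and Tmc2. It was at least 0.8 for 5.89% on chromosome 15 and 5.99% elsewhere with Serhl and Rrp7a, and for 6.31% on chromosome 5 and 6.12% elsewhere with Prr14l and Depdc5. For Josd1 and Gtpbp1 the shares were 4.63% on chromosome 15 and 5.15% elsewhere. Close followers were thus found on and off the chromosome in shares that differed most for Tgm3 and Tmc2. The 5 scores come from the same mice, and 1123 probes reached a within-set r of 0.8 with every score, out of 1738 that reached it with any.

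**Figure D4:**
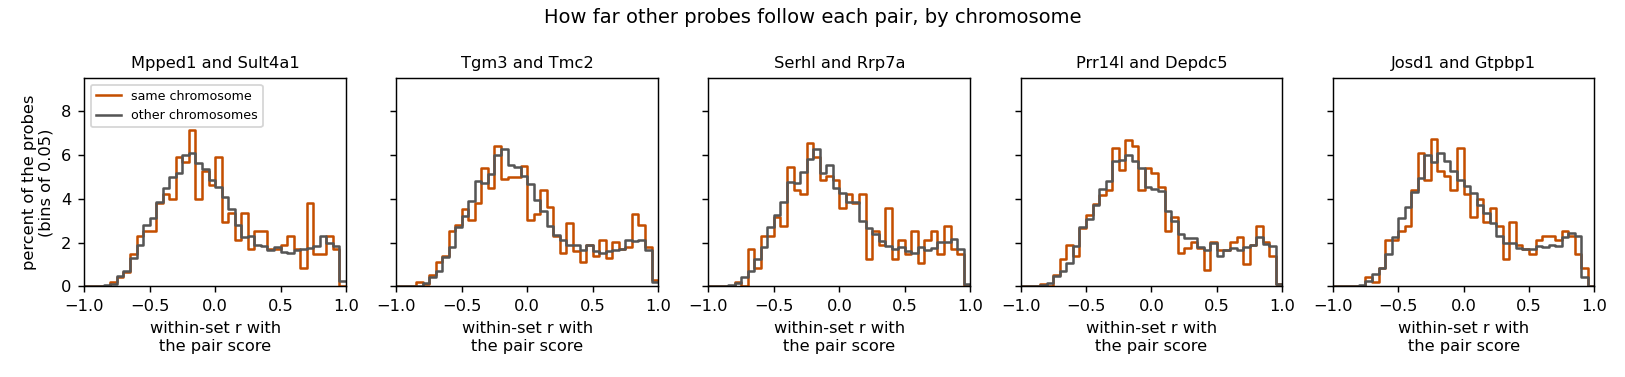
Share of probes in percent by their within-set r with each pair score, in bins of 0.05, for probes on the pair's chromosome (orange) and on other chromosomes (grey). The 2 outlines lie close together in each panel, with a broad peak below 0 and a further shoulder above 0.6.

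The genes that followed Mpped1 and Sult4a1 most closely lay on other chromosomes. Olfr464, an olfactory receptor gene on chromosome 11, rose by 0.361 ± 0.005 (SE) per unit of the pair score with a within-set r of 0.972 (limma, adjusted p = 8.80e-180). Fv1, a retrovirus restriction gene on chromosome 4, had an r of 0.971, and Dlx2, a homeobox gene of forebrain development on chromosome 2, 0.971. Olfr235 (0.963) and Grhl3, a regulator of skin barrier genes (0.962), completed the 5. On chromosome 15 the closest was Gdnf, a neurotrophic factor, with a slope of 0.311 ± 0.007 and an r of 0.941 (limma, adjusted p = 5.09e-136). It was followed by Rrp7a (0.932), Mapk8ip2 (0.928), Serhl (0.925) and Mchr1, the receptor of melanin-concentrating hormone (0.923).

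For Tgm3 and Tmc2 the closest gene was the sensory neuron receptor Mrgpra4 on chromosome 7, with an r of 0.973 (limma, adjusted p = 5.14e-183). Btf3 had 0.969, Kcp 0.967, the tooth enamel protease Klk4 0.966 and Clec4f 0.964. On chromosome 2 the closest were Olfr1270 (0.961), Jph2, a junction protein of muscle membranes (0.958), Dlx2 (0.956), Slc24a3 (0.949) and Tor2a (0.944). For Serhl and Rrp7a the 2 closest were members of other pairs, Prr14l (0.965) and Tgm3 (0.963), followed by the kisspeptin receptor Kiss1r (0.959), Slc12a9 (0.954) and Aasdh (0.954). On chromosome 15 it was Sult4a1 (0.936), Mpped1 (0.934), the transcription factor Scrt1 (0.911), Gtpbp1 (0.908) and the neural crest factor Sox10 (0.902).

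Prr14l and Depdc5 were followed most closely by Grhl3 on chromosome 4, with a slope of 0.381 ± 0.006 and an r of 0.967 (limma, adjusted p = 1.03e-169), then by Kcp (0.962), Dlx2 (0.959), Kiss1r (0.958) and Mrgpra4 (0.958). On chromosome 5 these were Foxn4 (0.951), Aasdh (0.948), Slc12a9 (0.943), the lens crystallin gene Crybb1 (0.939) and the vitamin transporter gene Slc5a6 (0.930). Josd1 and Gtpbp1 had the loosest following, with Gdf6 (0.936), the somatostatin receptor gene Sstr4 (0.932), the proteasome subunit gene Psmb4 (0.927), Grhl3 (0.925) and Pigw (0.923) off the chromosome. On chromosome 15 their 5 closest were Mpped1 (0.909), Rrp7a (0.905), Sox10 (0.902), Sult4a1 (0.902) and Serhl (0.887). In all, 36 genes were named for the 5 pairs and 12 of them for more than 1 pair. Their slopes were all positive. The skewness of the 29 that are not members ran from 0.68 to 1.92 with a median of 1.38. Dlx2 ran from -0.80 through -0.15 to 1.94, and Grhl3 from -0.70 through -0.10 to 1.68.

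No measured gene within 5 places of a pair reached the r between its partners. Next to Mpped1, Scube1 had a within-set r of 0.706, but Tspo, the mitochondrial translocator protein 3 places away, had -0.010, and Mcat, of mitochondrial fatty acid synthesis, had -0.247. On the far side of Sult4a1, the lipid droplet gene Pnpla3 had 0.101 and the parvin genes Parvb and Parvg had 0.415 and 0.737. Bik, 5 places off, had -0.280. Of these 7 measured genes within 5 places, 3 rose with the pair score and 2 fell, against 35.0% of all probes that rose and 43.6% that fell.

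Around Tgm3 and Tmc2, Ebf4 had 0.843 and the opioid precursor gene Pdyn 0.506, while Il1b, which encodes an inflammatory cytokine, had 0.042 and Cpxm1 0.040. Idh3b, 1700020A23Rik and Sirpa had 0.234, 0.168 and -0.169, and of the 7 genes 4 rose and 1 fell (34.9% and 43.6% of all probes). Around Serhl and Rrp7a none exceeded 0.35: Nfam1 had 0.347, A4galt 0.167, Tcf20 0.113, Poldip3 0.039 and Cyp2d34 -0.388, so that 2 of 5 rose and 1 fell (35.7% and 43.3%). Around Prr14l and Depdc5 the sodium-glucose transporter gene Slc5a1 had 0.604, the 14-3-3 gene Ywhah next to the pair -0.017, the Src-family kinase gene Yes1 -0.315 and Maea -0.459, so that 1 of 4 rose and 2 fell (35.4% and 43.2%). Around Josd1 and Gtpbp1 the nuclear envelope gene Sun2 had 0.799 and Nptxr 0.708, while Dnal4, which lies between these 2, had -0.353, the meiotic recombinase gene Dmc1 -0.534 and Ddx17 0.430, and 3 of 5 rose and 2 fell (36.2% and 42.2%).

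**Figure D5:**
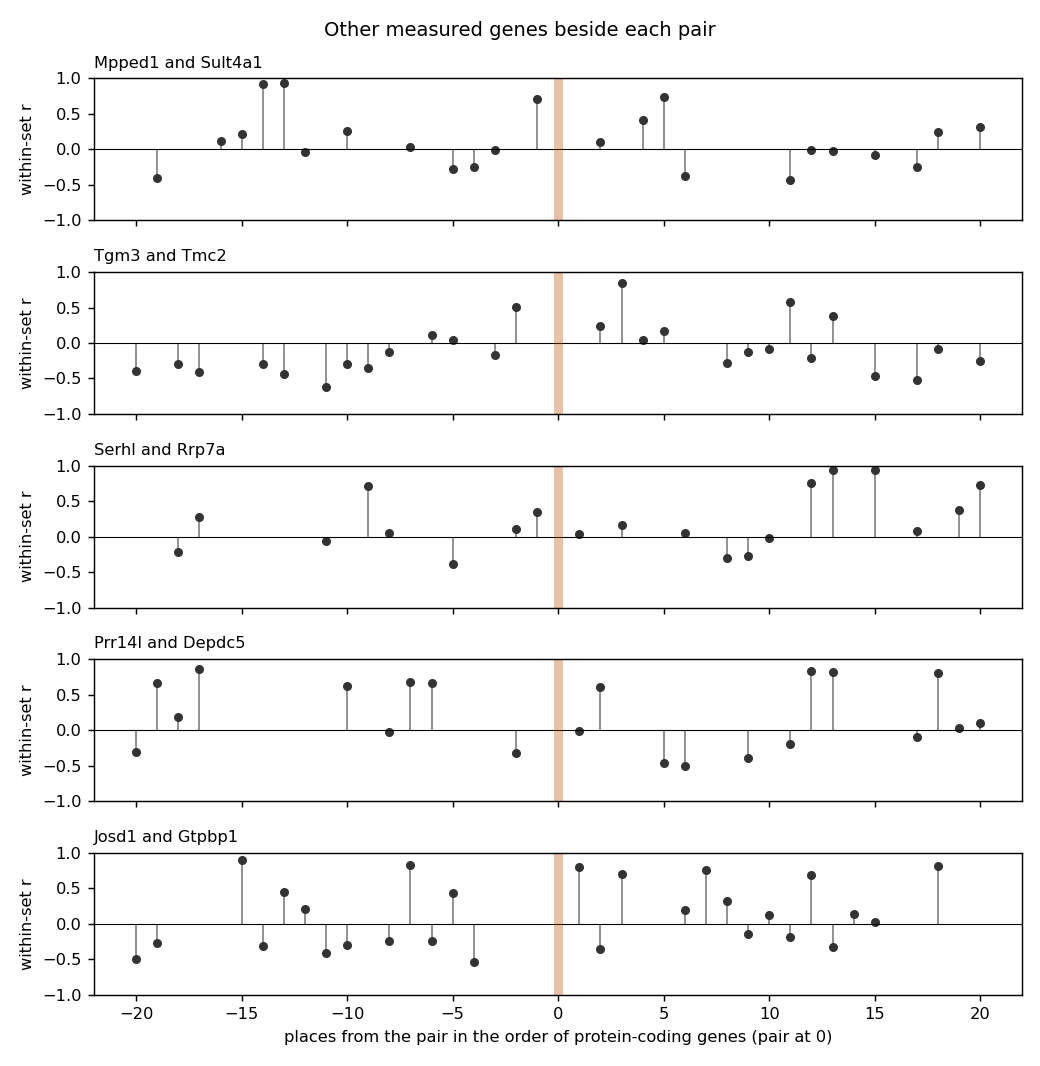
Within-set r of the other measured genes with each pair score, by their place in the order of protein-coding genes up to 20 places from the pair, which lies at 0. High and low values alternate along each chromosome; the 2 points above 0.9 beside Mpped1 and Sult4a1 are Serhl and Rrp7a, and those beside Serhl and Rrp7a are Mpped1 and Sult4a1.

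Genes with roles related to those of the members moved in both directions. Among 12 other measured genes of GATOR1 and amino acid sensing by mTORC1, 2 rose and 8 fell with the Prr14l and Depdc5 score, against 35.4% and 43.2% of all probes, and their median r was -0.18, against -0.06 over all probes. Wdr24, a subunit of the opposing complex GATOR2, fell by 0.192 ± 0.010 per unit of that score with a within-set r of -0.741 (limma, adjusted p = 2.78e-51), and the leucine sensor gene Sesn2 had an r of -0.412. Of 9 other genes of the small subunit processome, 1 rose and 4 fell with the Serhl and Rrp7a score, against 35.7% and 43.3% of all probes (median r -0.08, against -0.06): Rrp9 had an r of 0.812 and Wdr43 -0.466. Of 6 other Tmc genes, 3 rose and 2 fell with the Tgm3 and Tmc2 score, against 34.9% and 43.6% of all probes (median r 0.30, against -0.06), with Tmc8 at 0.852 and Tmc3 at 0.644. Of 3 other transglutaminase genes 1 rose and 2 fell with that score (median r -0.26), Tgm4 at 0.370 and Tgm2 at -0.329. Of 10 other cytosolic sulfotransferase genes, 3 rose and 1 fell with the Mpped1 and Sult4a1 score, against 35.0% and 43.6% of all probes (median r -0.02, against -0.06), with Sult3a1 at 0.787. Of 3 genes related to Gtpbp1, 2 fell and none rose with the Josd1 and Gtpbp1 score, against 42.2% and 36.2% of all probes (median r -0.29, against -0.04), with the termination factor gene Gspt1 at -0.308. The relatives of Josd1 and Prr14l measured here had negative values: Atxn3, another Josephin gene, had an r of -0.423 with Josd1 and Gtpbp1, and Prr14 one of -0.323 with Prr14l and Depdc5. The further Josephin gene Josd2 was not among the measured genes.

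Of 263 olfactory receptor (Olfr) genes, 152 to 158 rose and 75 to 84 fell with the 5 scores, and of 33 vomeronasal receptor (Vmn) genes 23 rose and 8 to 10 fell, where 34.9% to 36.2% of all probes rose and 42.2% to 43.6% fell. Both families were added to the planned role and marker lists. Olfr genes are among the closest followers named above, so these counts are a description. The median r of the Olfr genes lay between 0.35 and 0.36 and that of the Vmn genes between 0.53 and 0.56, against -0.06 to -0.04 over all probes. Against the array-wide component, 36.9% of the Olfr and 48.5% of the Vmn genes had an r of at least 0.6, and 14.7% of all 11454 genes did. Among markers of cell types, Cdh5 of endothelium followed the scores with an r of 0.803 for Mpped1 and Sult4a1, while the median of the 4 endothelial markers lay between 0.12 and 0.17, and Cd3e of T cells had 0.628 with the same score, against a median of 0.09 to 0.15 over the 4 T cell markers. Over both Eif2s3y sets together, all 6 epithelial markers had negative r with all 5 scores, from -0.29 to -0.08. So did the 6 epididymal markers, from -0.24 to -0.03, but the sets differed for the epididymis. A score of epididymis transcripts had an r with the members of -0.4059 to -0.1521 in Eif2s3y-high mice. In Eif2s3y-low mice this r was positive, from 0.2078 to 0.2996. The median over the 5 scores lay between -0.01 and 0.08 for the 7 adipocyte markers, 0.11 and 0.21 for the 8 macrophage markers, 0.09 and 0.20 for the 3 B cell markers, 0.27 and 0.31 for the 2 markers of exocrine pancreas, and -0.17 and -0.13 for the 3 of skeletal muscle. It lay between -0.06 and -0.01 for the 4 of brown fat, 0.01 and 0.05 for the 2 erythroid ones, and -0.26 and -0.24 for Msln, the only mesothelial one measured. Of the 3 muscle markers, Ckm rose with every score, with r from 0.340 to 0.379, while the other 2 fell. The part of these cell types in the covariation was not tested.

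The 10 members all rose with Lep, which encodes leptin, the hormone that fat cells release in proportion to their lipid. The within-set r ran from 0.343 in Tmc2 to 0.459 in Sult4a1, with positive values in Eif2s3y-high mice (0.321 to 0.514) and in Eif2s3y-low mice (0.341 to 0.458). The slope of Sult4a1 was 0.305 ± 0.035 per log2 unit of Lep (limma, adjusted p = 1.95e-15), and that of Tmc2 0.294 ± 0.047 (limma, adjusted p = 6.76e-09). Over all probes 66.8% passed the test with Lep and 38.9% rose, so members were among a large share of the array. With the array-wide component added to the fit, 55.5% of all probes passed and 3 of the 10 members did, Sult4a1 (r = 0.282), Depdc5 (0.250) and Gtpbp1 (0.193), and Tgm3 had -0.129. The other Depdc5 probe had an r of 0.051 with Lep (limma, adjusted p = 0.449).

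With a macrophage score, the mean of 8 standardised macrophage markers, 9 members rose, while Mpped1 did not pass (r = 0.095, limma, adjusted p = 0.148). The r of the 9 ran from 0.144 in Prr14l to 0.247 in Rrp7a, and over all probes 60.0% passed and 32.6% rose. No member passed in Eif2s3y-high mice alone, where r ran from -0.126 to 0.177, and in Eif2s3y-low mice it ran from 0.217 to 0.309. Without the covariate for the Eif2s3y set no member passed either, and with the array-wide component added 9 did, as did 61.5% of all probes.

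With Eif2s3y itself all 10 members fell. The r ran from -0.446 in Gtpbp1 to -0.333 in Josd1, where 71.1% of all probes passed, 31.1% rising and 40.0% falling. The medians show the size: Gtpbp1 stood at -0.08 in Eif2s3y-high mice against 0.14 in Eif2s3y-low mice, Mpped1 at -0.21 against 0.02, and Josd1 at 0.01 against 0.10, so the sets overlapped over most of their range. Within sets the relation was weak, with r from -0.228 to -0.145 in Eif2s3y-high mice and from -0.050 to 0.019 in Eif2s3y-low mice. With the array-wide component added, all 10 slopes on Eif2s3y were positive and 8 passed, as did 55.4% of all probes, with r from 0.045 in Gtpbp1 to 0.443 in Prr14l. The component itself had an r of -0.492 with Eif2s3y over all mice, more negative than that of any member. The fits on Eif2s3y had no covariate for the set, so the turned slopes do not show a rise of the members with Eif2s3y.

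Summaries of the whole array also moved with the members. The interquartile range of an array's values had an r with the members of -0.398 to -0.097 in Eif2s3y-high mice and of 0.598 to 0.719 in Eif2s3y-low mice. The array mean had an r of -0.661 to -0.365 in Eif2s3y-high mice and of -0.240 to -0.109 in Eif2s3y-low mice. For the array median it was 0.354 to 0.630 in Eif2s3y-high mice and -0.357 to -0.226 in Eif2s3y-low mice. The number of missing values had an r of -0.247 to -0.181 over all mice. By set this was -0.335 to -0.259 in Eif2s3y-high mice and -0.100 to -0.016 in Eif2s3y-low mice. With each array's median removed, the r of the 5 pairs ran from 0.898 to 0.949. The part of these array properties in the covariation was not tested. Other probes of the same genes followed the component less. In 124 genes whose representative probe had an r of at least 0.8 with it, the 156 other probes had a median r of 0.164 and 30.1% reached 0.6. Over all 1267 genes with several probes, the other probes had a median of -0.0053 and 17.6% reached 0.6. The representative probe is the most variable of its gene, and the 124 genes were picked by its r. A lower r in their other probes was thus built in and cannot tell gene from probe. The promoters of the 626 genes with an r of at least 0.8 and a window had a median GC content of 57.3%, against 59.0% over 8545 measured genes.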

How the data were processed

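The values are log10 ratios, 1 column per mouse, as deposited by the authors; the base, the direction (mouse over pool) and the centring were read from the values, and how they were background-corrected and normalized was not given in the sources used here. An r under -0.3 was found in 944 of 43365 array pairs (lowest -0.52). The direction was not turned for these, because the labels state the dyes and 2 mice can lie on opposite sides of the pool. The series text gives 295 mice and the sample text 330. One mouse number differs between title and source name, and the title was used. Depth has no counterpart on arrays: precision is limited by 295 mice with 1 array each. The p-values measure the spread between these mice together with that between their arrays, which cannot be separated.

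Values were multiplied by 3.32 to give log2. The filter kept 22894 of 23387 probes, those with a value in 90% or more of the arrays; gaps took the probe mean, and none fell in a member. Of all probes, 13644 had 1 symbol and 12652 matched RefSeq through the Entrez ID; 48 had several symbols and were not named. Gene order came from RefSeq (GRCm38.p6). The files name no build. Fits used limma 3.58.1 in R 4.3.3 (lmFit and eBayes), and scores, correlations and figures Python 3.11.15 with NumPy 2.4.6, pandas 2.3.3 and matplotlib 3.10.9. On simulated data for the Mpped1 and Sult4a1 score, run on 22894 probes, 32 of 100 probes with a true r of 0.2 and 100 of 100 with 0.4 were recovered, with 6 false calls. In the simulation the probes varied independently and 22694 had no relation to the score. In the data most probes passed and many varied together, so these figures do not give the power or false calls of the fits.

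The members and the lists were chosen with earlier results of these data known. The text names the members; per pair the 5 called genes of largest absolute within-set r on the chromosome and the 5 elsewhere; measured genes within 5 places; and, of role lists and marker lists, genes among the 2 largest r. Alternatives covered the filter, the limits of the scale, missing values, array medians, each Eif2s3y set alone, arrays with epididymis transcripts, covariates and single members.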

Additional observations from a re-analysis of the deposited data

How the results depend on the processing

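The r of the 5 pairs stayed within the interval of its main value with array medians removed, without the arrays with epididymis transcripts and without the 2 farthest mice. It moved with Spearman's rho (Mpped1 and Sult4a1 0.931, Tgm3 and Tmc2 0.907, Serhl and Rrp7a 0.887, Prr14l and Depdc5 0.875, Josd1 and Gtpbp1 0.863) and in Eif2s3y-high mice (0.905, 0.888, 0.820, 0.858 and 0.850 in the same order). Serhl and Rrp7a moved to 0.946 in Eif2s3y-low mice, 0.889 in the low and 0.939 in the middle block of mouse numbers, and 0.351 with the other Serhl probe. Prr14l and Depdc5 moved to 0.937 in the high block and 0.382 with the other Depdc5 probe, and Josd1 and Gtpbp1 to 0.879 in the middle block and 0.880 with the first principal component of all probes held constant. With the array-wide component held constant, an alternative chosen after the data were seen, the 5 values were 0.367, 0.419, 0.390, 0.229 and 0.409. The cause of these moves was not tested.

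Requiring a within-set r of at least 0.4 in size as well as an adjusted p under 0.05 left 8315, 8325, 8288, 8215 and 7781 probes for the 5 scores, of 18001, 17989, 18084, 17985 and 17931, by the added condition. Of the 10 members, 3 passed with Lep once the array-wide component was added, where Tgm3 had -0.129 and Tmc2 -0.077. With the macrophage score 0 passed in Eif2s3y-high mice alone (Mpped1 -0.126, Prr14l -0.027, Tgm3 -0.019), 0 without a covariate (Depdc5 -0.067, Gtpbp1 -0.080, Mpped1 -0.097, Prr14l -0.042, Sult4a1 -0.026, Tgm3 -0.038, Tmc2 -0.031), 2 with the first principal component added and 3 with the block of mouse numbers added. With Eif2s3y 1 passed in Eif2s3y-high mice alone and 0 in Eif2s3y-low mice alone, where 5 slopes turned (Mpped1 0.010, Prr14l 0.018, Sult4a1 0.0020, Tgm3 0.019, Tmc2 0.0013). With the array-wide component added all 10 turned (Depdc5 0.125, Gtpbp1 0.045, Josd1 0.295, Mpped1 0.422, Prr14l 0.443, Rrp7a 0.363, Serhl 0.257, Sult4a1 0.313, Tgm3 0.398, Tmc2 0.285). For the settings without the array-wide component, the share of all probes that passed is not given here, so those counts of members stand alone. In Eif2s3y-high mice alone, 5 neighbours turned: 1700020A23Rik (-0.0018) and Cpxm1 (-0.084) with Tgm3 and Tmc2, Mcat (0.110) and Tspo (0.282) with Mpped1 and Sult4a1, and Yes1 (0.076) with Prr14l and Depdc5. Neighbours with an r near 0 also turned in Eif2s3y-low mice (Ywhah 0.055), with the second member alone (Tspo 0.042), without a covariate (Tspo 0.102, Il1b -0.0044, Poldip3 -0.0083) and with the first principal component added (Pnpla3 -0.011, Il1b -0.00719, Tcf20 -0.013). The cause was not tested. Over all single genes and settings, 1157 values kept their direction and side of the threshold, 50 kept their direction but no longer passed, 9 newly passed, and the 40 that turned are those above.

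No paired analysis was possible because there is 1 group. Signal over background is not part of the values used here, so it is unknown which members were bright enough on the arrays to be measured well.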

Other observations

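Some adjacent genes without a shared name, of which a selection is given, kept their r with the array-wide component held constant. Ptgds, which encodes a prostaglandin synthase, and the lipocalin gene Lcn12 on chromosome 2 had an r of 0.944 over the 295 mice and 0.942 with the component held constant. The coagulation factor genes F7 and F10 on chromosome 8 had 0.912 and 0.914, and Ido1, of tryptophan breakdown, and Adam18 on chromosome 8 had 0.901 and 0.890. Pnpt1 and Mtif2 on chromosome 11, with 4 protein-coding genes between them, had 0.864 and 0.895. The immune receptor genes Slamf7 and Cd48 on chromosome 1 had 0.858 and 0.854, and Ptpro and Eps8 on chromosome 6 had 0.863 and 0.846. Sh3glb2 and Miga2 on chromosome 2 had 0.890 and 0.874. The r of these genes with the component itself ran from -0.382 in Ptpro to 0.356 in Sh3glb2, against 0.902 to 0.970 in the members of the 5 pairs. These pairs were picked after their values were seen and are given as a description.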
